A study of Mus musculus with 30 samples.

Results

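The genes described here are 29 genes of cholesterol synthesis and of its control by SREBP2, of 17990 in the deposited count table. They were chosen by symbol as enzymes, regulators and targets of the pathway, and all 29 were found and passed the filter on low counts. Their levels were read in livers taken at 10 weeks of age from offspring of outbred ICR mice, in 10 groups of 3 libraries, which were female and male offspring of dams in 5 groups. Dams received 2,4-BPS, BPSIP, BPS or E2 in drinking water, or ethanol alone as control, from the first day of pregnancy until weaning, for about 40 days. The water held a compound at 10 ng/mL, later adjusted to keep a dose of 5 µg/kg body weight a day, and every group including the controls also drank 0.001% ethanol. BPS (bisphenol S) is a pair of phenols joined by a sulfone, 2,4-BPS is its isomer with a hydroxyl group moved, BPSIP is BPS with a hydroxyl group capped by an isopropyl ether, and E2 is the oestrogen estradiol. Offspring of a group came from litters of different dams, of 8 dams per group, and the labels describe RNA taken from each liver on its own. They met the compounds through the dam, and no dosing of offspring after weaning is described.

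Liver cells build cholesterol from acetyl-CoA in a long chain of enzymes. Acetyl-CoA is joined to HMG-CoA and reduced to mevalonate, mevalonate is turned into isoprenoid units, the units are assembled into squalene, squalene is closed into the ring of lanosterol, and lanosterol is trimmed to cholesterol. The genes of most of these enzymes are switched on by SREBP2, a transcription factor held in the membrane of the endoplasmic reticulum. When membrane cholesterol is low, SCAP carries SREBP2 to the Golgi, where the proteases encoded by Mbtps1 and Mbtps2 release it, and when sterols are high the INSIG proteins hold SCAP back. The liver is a main site of this synthesis and passes cholesterol on to lipoproteins and bile.

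Libraries held 29711711 to 37719069 counts, and the 29 genes had 103 to 33894 counts per library. Over the 290 combinations of gene and group, the median coefficient of variation was 5.36% and the highest was 25.9%. The libraries labelled male control stood apart from the other male libraries. Their summed level of 4 Y-linked genes was 84.7 to 95.3 CPM (counts scaled to library size), against 131 to 169 CPM in the exposed males and at most 0.543 CPM in females. Their summed level of 6 genes that are female-specific in mouse liver was 2625 to 3158 CPM, against 2.99 to 10.5 CPM in the exposed males and 5103 to 5307 CPM in female controls. Both sums lie between those of exposed males and those of females, against the label of male liver. These 3 libraries were therefore a side of no comparison below, and exposed males were compared with each other. They did stay in the fits, where they entered the filter, the scaling and the estimate of spread.

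Per gene length, the pathway spanned a wide range of levels in the livers of control females. Ebp, the sterol isomerase that shifts a ring double bond late in the pathway, stood highest at 124 ± 1.39 FPKM (scaled by library size and gene length; mean ± SD, n = 3). It was followed by the sterol C14 reductase gene Tm7sf2 at 76.0 ± 0.941 FPKM and the farnesyl diphosphate synthase gene Fdps at 60.8 ± 1.84 FPKM. The lowest were Mbtps2, which encodes the second SREBP protease, at 1.79 ± 0.0739 FPKM, and the geranylgeranyl diphosphate synthase gene Ggps1 at 1.07 ± 0.184 FPKM. The order differed between groups. The HMG-CoA synthase gene Hmgcs1 stood at 33.3 ± 0.632 FPKM in control females and at 224 ± 3.84 FPKM in BPSIP females, where it was above Ebp (131 ± 3.60 FPKM). In BPSIP males it was at 20.3 ± 0.282 FPKM, below Ebp at 86.5 ± 4.86 FPKM.

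In females, exposed groups were compared with the ethanol control to ask how each perinatal exposure left the pathway at 10 weeks. BPSIP females had the highest mean of the 5 female groups in 20 of 29 genes and the lowest in 6. The shares of all genes with BPSIP highest or lowest by mean were not computed. In BPSIP females 20 of 29 genes were higher than in control females and 4 were lower. The median log2 fold change was 1.24 over the 29 against −0.01 over all genes tested. By the same test (edgeR's quasi-likelihood test, adjusted p under 0.05 over all genes) 38.6% of the 13874 genes tested differed, 19.4% higher and 19.2% lower. That share is called the background below, and 20 of 29 lies above it. The 29 genes were chosen with earlier results of these data known, so such an excess is not independent support. The 4 lower genes were Npc1, Scap, Mbtps1 and Mylip. In BPS females 20 genes were higher and 0 were lower (median 0.45), beside a background of 16.8% (9.32% higher and 7.5% lower). In 2,4-BPS females 17 were higher and 2 were lower (median 0.25), beside 19.3% (10.9% and 8.42%). In E2 females 13 were higher and 5 were lower (median 0.17), beside 21% (10.4% and 10.6%). That median was 0.08 without either control library 1 or E2 library 1. The 4 comparisons share the same 3 control libraries. In bulk samples like these, fewer cells of a type and less RNA per cell cannot be told apart.

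A core of 13 genes was higher than control in all 4 exposed female groups, as were 1.28% of all 13874 genes tested, in comparisons that share their controls. They were Hmgcs1, Mvk, Mvd, Idi1, Fdps, Fdft1, Sqle, Lss, Cyp51, Msmo1, Hsd17b7, Srebf2 and Insig1, which take in enzymes from the start of the mevalonate pathway to the trimming of lanosterol as well as the transcription factor and its retention protein. In at least 1 exposed group, 7 genes were lower than control, namely Aacs, Ebp, Mbtps1, Mylip, Npc1, Scap and Tm7sf2. Of all genes tested, 19.2% were lower with BPSIP, 10.6% with E2, 8.42% with 2,4-BPS and 7.5% with BPS. The share of all genes lower in at least 1 of these groups was not computed, so the 7 have no matching background. Aacs was higher than control in the exposed groups other than E2. Ggps1 and Mbtps2 passed the threshold in none of the 4. Within the core, the call for Hsd17b7 in 2,4-BPS females was lost without control library 2 (0.0966) or 2,4-BPS library 1 (0.0583), and that for Fdps in E2 females was lost without control library 2 (0.0693), control library 3 (0.102), E2 library 2 (0.0762) or E2 library 3 (0.0658) and with only the libraries of both groups in the fit (0.06), with the adjusted p of each in brackets. When a fold over 1.2 was required, the 4 counts of 19, 24, 20 and 18 called genes in 2,4-BPS, BPSIP, BPS and E2 females became 9, 22, 14 and 12, beside 5.69%, 18.7%, 4.82% and 6.44% of all genes under that requirement. The genes lost were Scap, Fdft1, Stard4, Fdps, Tm7sf2, Dhcr7, Nsdhl, Hsd17b7, Lss and Aacs for 2,4-BPS, Mbtps1 and Mylip for BPSIP, Dhcr7, Srebf2, Lss, Acat2, Pmvk and Lbr for BPS and Ebp, Npc1, Fdps, Tm7sf2, Mbtps1 and Lss for E2.

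**Figure D1:**
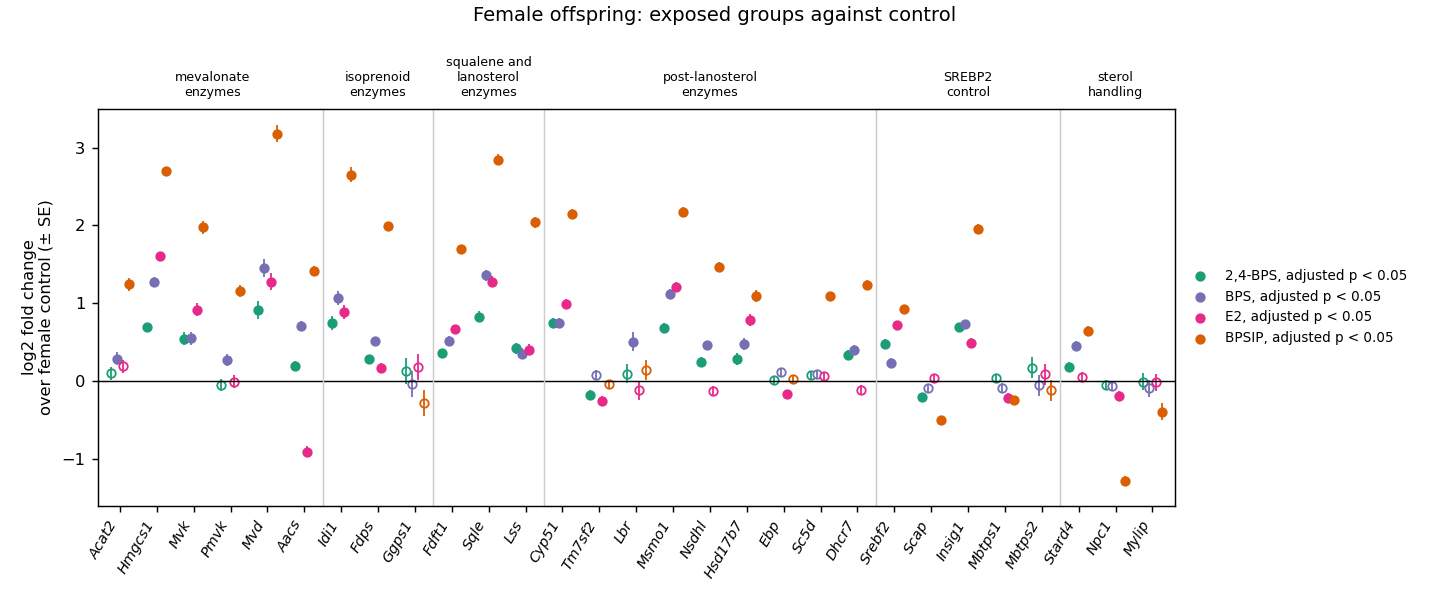
The log2 fold change over female control (vertical axis, ± SE) is drawn for each of the 29 genes (horizontal axis, ordered by role) in 4 exposed groups of 3 libraries, filled where the adjusted p was under 0.05 and open where it was not. BPSIP points lie above the others for most enzymes, up to 3.18 for Mvd, and below 0 for Npc1 at −1.29.

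The promoters of these genes were read because SREBP2 binds the sterol regulatory element and acts there together with NF-Y, which binds CCAAT. RefSeq windows on GRCm38.p6, 250 bases before to 50 bases after a gene's start, were matched by symbol for 24 of the 29 genes. Fdps, Fdft1, Sqle, Stard4 and Npc1 had no entry. A shortened core of the sterol regulatory element, TCACNCCA on either strand, was found in the windows of 3 genes, Hmgcs1, Srebf2 and Msmo1, in 4.36% of all 32851 windows and for 4.97% of all genes with a window. The longer TCACNCCAC, which contains the shorter one, was found for 1 of the 24, Hmgcs1, in 1.24% of all windows and for 1.44% of genes. CCAAT was found for 19 of the 24 genes, in 37.4% of all windows and for 41.1% of all genes. The Sp1 box GGGCGG was found for 20 of the 24, in 35.7% of windows and for 38.2% of genes. All 3 genes with the shortened core were higher in BPSIP females than in control. Of the 16 genes with a window that were higher in BPSIP females, 14 held CCAAT, as did 1 of 3 lower genes and 4 of 5 genes that passed in neither direction. The stretches below show the 3 genes with the core, followed by Mvd and Idi1, the genes with the largest BPSIP fold changes among those whose window holds no core. All read 5′ to 3′ on the gene's strand, and capitals mark TCACNCCA and CCAAT, which reads ATTGG from the opposite strand. Hmgcs1 is at chr13:119690164-119690271 on the plus strand, 187 to 80 bases before the start. Srebf2 is at chr15:82147057-82147164 on the plus strand, 212 to 105 bases before it. Msmo1 is at chr8:64733698-64733805 on the minus strand, 227 to 120 bases before it. Mvd is at chr8:122443423-122443532 on the minus strand, 110 to 1 bases before it, and Idi1 at chr13:8885511-8885605 on the plus strand, 95 to 1 bases before it.
Hmgcs1: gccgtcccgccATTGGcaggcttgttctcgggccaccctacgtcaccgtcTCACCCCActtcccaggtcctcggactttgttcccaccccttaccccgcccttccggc
Srebf2: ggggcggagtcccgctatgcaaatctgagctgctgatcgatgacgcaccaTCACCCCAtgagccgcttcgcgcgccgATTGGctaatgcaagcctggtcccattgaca
Msmo1: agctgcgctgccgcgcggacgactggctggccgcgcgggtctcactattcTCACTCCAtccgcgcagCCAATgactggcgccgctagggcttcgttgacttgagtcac
Mvd: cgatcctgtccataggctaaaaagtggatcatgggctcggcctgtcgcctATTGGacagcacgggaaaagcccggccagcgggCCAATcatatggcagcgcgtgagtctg
Idi1: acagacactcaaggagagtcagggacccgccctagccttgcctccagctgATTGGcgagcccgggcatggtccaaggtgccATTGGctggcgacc
In Hmgcs1 and Srebf2 the core reads TCACCCCA. The whole Hmgcs1 window holds ATTGG on both sides of the core, of which the stretch shows the nearest upstream one, and the Srebf2 window holds ATTGG downstream of the core only. In Msmo1 the core reads TCACTCCA, and CCAAT follows it on the same strand, in the stretch and again further downstream in the window. Mvd and Idi1 each hold a pair of CCAAT boxes and no core in these windows. A match of letters is no evidence of binding, and a window without one says nothing of sites elsewhere.

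Of the 6 genes for mevalonate enzymes, all 6 were higher in BPSIP and in BPS females than in control, 4 in 2,4-BPS females, and 3 in E2 females with 1 lower. Hmgcs1, which condenses acetyl-CoA with acetoacetyl-CoA into HMG-CoA, was at 131, 128 and 126 CPM in the 3 control females. BPSIP females had 805, 851 and 836 CPM, E2 females 408, 364 and 403 CPM, BPS females 296, 317 and 313 CPM and 2,4-BPS females 208, 201 and 208 CPM. No library of an exposed group overlapped the controls, and the BPSIP libraries lay above all others. The log2 fold changes were 2.70 ± 0.06 for BPSIP (± SE; adjusted p = 5.98e-30), 1.61 ± 0.05 for E2, 1.28 ± 0.05 for BPS and 0.69 ± 0.05 for 2,4-BPS.

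**Figure D2:**
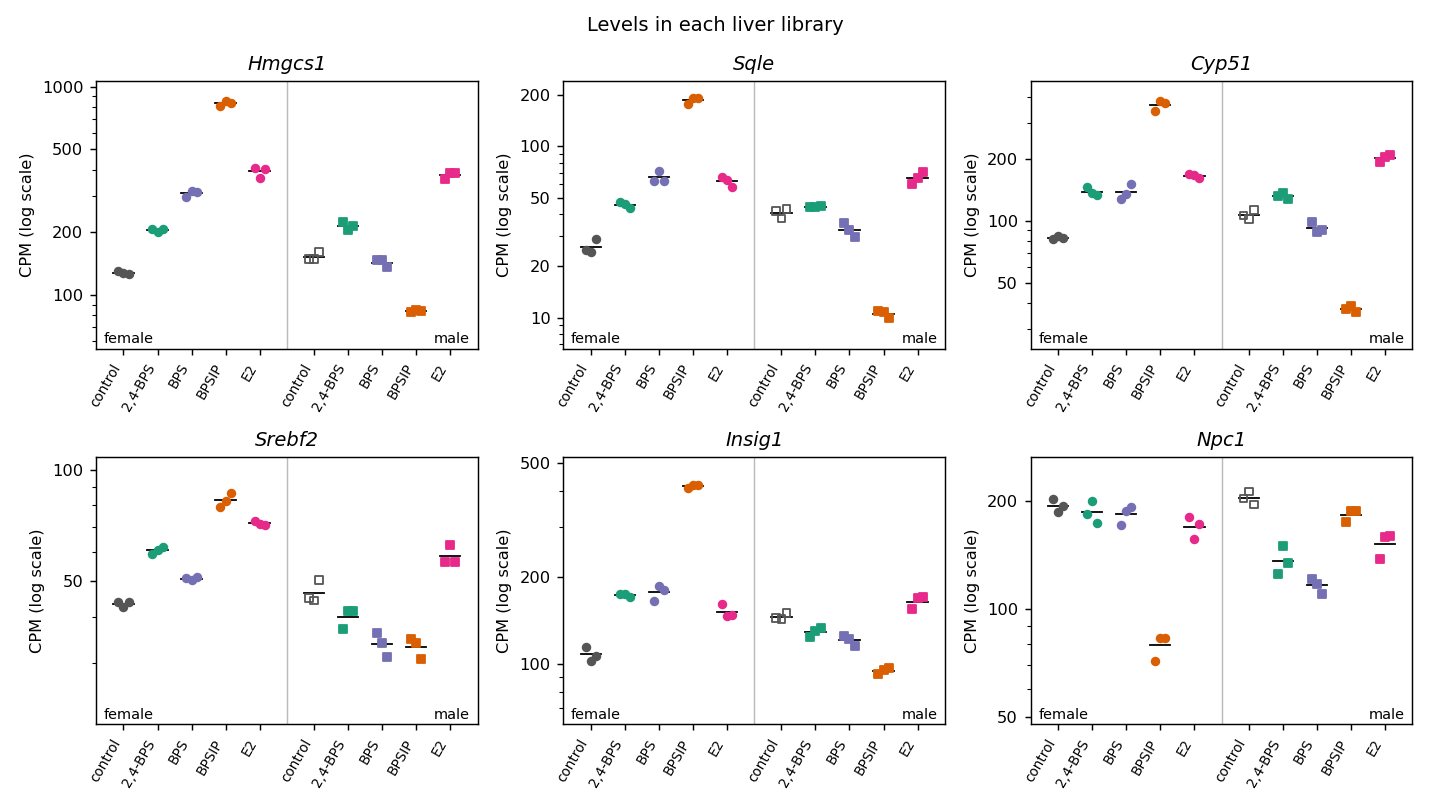
Levels of 6 genes in CPM (vertical axes, log scale) are drawn for each library of the 10 groups (horizontal axes), with circles for females, squares for males, open squares for the libraries labelled male control and bars for group means. For Hmgcs1, Sqle, Cyp51 and Insig1 the BPSIP libraries are the highest among females and the lowest among exposed males, as for Hmgcs1 with means of 831 and 83.9 CPM, while Npc1 is lowest in BPSIP females at 79.5 CPM.

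Mvd, the decarboxylase that makes isopentenyl diphosphate, had the largest fold change of the 29 genes in BPSIP females. It was at 7.55, 7.19 and 6.40 CPM in controls and at 69.1, 60.5 and 61.8 CPM in BPSIP females, 9.04-fold higher (3.18 ± 0.11 log2, adjusted p = 1.22e-22), with groups that did not overlap. Mvk, the mevalonate kinase gene, rose from 11.7 ± 0.292 CPM to 46.3 ± 0.715 CPM with BPSIP (1.98 ± 0.09), and the phosphomevalonate kinase gene Pmvk from 29.3 ± 4.04 CPM to 65.2 ± 2.28 CPM (1.15 ± 0.08). In 2,4-BPS and E2 females Pmvk missed the threshold, with log2 fold changes of −0.05 (95% interval, not adjusted for the number of genes, −0.22 to 0.11) and −0.01 (−0.17 to 0.15). The acetoacetyl-CoA thiolase gene Acat2 behaved likewise, at 0.10 (−0.07 to 0.26) and 0.19 (0.02 to 0.35), and rose by 1.24 ± 0.08 with BPSIP. In BPS females the calls for these genes were lost without some libraries, for Pmvk (0.27) without control library 1 (0.207), BPS library 1 (0.0554) or BPS library 3 (0.0583) and for Acat2 (0.29) without control library 3 (0.0662) or BPS library 3 (0.135).

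Aacs departed from the other mevalonate genes. It encodes acetoacetyl-CoA synthetase, which returns the ketone body acetoacetate to lipid synthesis. Control females had 38.1, 36.5 and 38.8 CPM, BPSIP females 94.5, 103 and 106 CPM and E2 females 19.1, 21.4 and 20.1 CPM. BPSIP libraries were all above and E2 libraries all below the controls, with log2 fold changes of 1.42 ± 0.06 (adjusted p = 1.17e-19) and −0.91 ± 0.07 (adjusted p = 3.56e-13). With BPS it rose by 0.70 ± 0.06. Its small rise with 2,4-BPS (0.19 ± 0.07) was lost without control library 1 (0.0722), control library 2 (0.135), control library 3 (0.0507), 2,4-BPS library 1 (0.0682) or 2,4-BPS library 2 (0.149).

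Among the 3 isoprenoid genes, Idi1 and Fdps rose in all 4 exposed female groups and Ggps1 passed in none. Idi1, which interconverts the isoprene units, was at 17.7, 20.2 and 18.2 CPM in controls and 112, 122 and 119 CPM in BPSIP females. Fdps, which joins the units to farnesyl diphosphate, was at 87.2, 84.2 and 82.2 CPM and 345, 330.4 and 336 CPM. BPSIP libraries of both genes lay clear of the controls, at log2 fold changes of 2.65 ± 0.09 and 1.99 ± 0.06 (adjusted p = 3.97e-20 and 4.77e-26). Idi1 rose by 1.07 with BPS, 0.89 with E2 and 0.74 with 2,4-BPS, and Fdps by 0.51, 0.17 and 0.28. Ggps1 makes the geranylgeranyl diphosphate used to anchor proteins in membranes, on a branch that leaves the sterol route at farnesyl diphosphate. It was at 5.93 ± 1.03 CPM in control and 4.88 ± 0.419 CPM in BPSIP females (−0.28, 95% interval −0.63 to 0.06).

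All 3 genes between farnesyl diphosphate and lanosterol were higher than control in every exposed female group. Sqle, the epoxidase that adds oxygen to squalene, was at 24.8, 24.2 and 28.6 CPM in control females and 47.3, 46.2 and 43.5 CPM in 2,4-BPS females. BPS females had 63.0, 71.9 and 62.9 CPM and E2 females 66.7, 63.9 and 58.2 CPM. BPSIP females had 176, 193 and 191 CPM, 7.19-fold the control level (adjusted p = 4.1e-27). Every exposed library was above every control library, and the BPS and E2 libraries overlapped each other. The squalene synthase gene Fdft1 and the lanosterol synthase gene Lss rose with BPSIP by 1.70 ± 0.05 and 2.04 ± 0.07. In the other 3 groups their log2 fold changes were 0.36, 0.52 and 0.67 for Fdft1 with 2,4-BPS, BPS and E2. For Lss they were 0.42, 0.35 and 0.40.

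The 9 genes that turn lanosterol into cholesterol split. With BPSIP, 6 were higher than control and 3 did not pass, while with E2 there were 3 higher genes and 2 lower genes. Cyp51, which removes the first methyl group of lanosterol, was at 81.3, 84.3 and 82.8 CPM in controls, 343, 382 and 375 CPM with BPSIP and 169, 167 and 161 CPM with E2. The 3 groups did not overlap, with log2 fold changes of 2.14 ± 0.06 and 1.00 ± 0.06 (adjusted p = 4.77e-26 and 4.76e-16). Msmo1 and Nsdhl, whose products take off the next methyl groups, rose by 2.17 ± 0.06 and 1.47 ± 0.06 with BPSIP. With E2, Msmo1 rose by 1.21 ± 0.06 while Nsdhl was at −0.13 (95% interval −0.25 to −0.0036) and missed the threshold. Dhcr7, the last reductase on the route to cholesterol from 7-dehydrocholesterol, and Sc5d, the desaturase before it, rose with BPSIP by 1.24 ± 0.06 and 1.09 ± 0.05. With E2 both missed the threshold, at −0.12 (−0.25 to 0.01) and 0.06 (−0.04 to 0.17).

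Hsd17b7, a sterol ketoreductase, rose from 42.8 ± 3.98 CPM to 91.7 ± 5.33 CPM with BPSIP and to 73.9 ± 8.60 CPM with E2. The 3 genes of this stage that did not pass with BPSIP were Ebp, Tm7sf2 and Lbr. Tm7sf2 and Lbr both encode a sterol C14 reductase, and LBR is also the lamin B receptor of the nuclear envelope. Their log2 fold changes with BPSIP were 0.02 (95% interval −0.09 to 0.13), −0.04 (−0.16 to 0.07) and 0.14 (−0.11 to 0.39). None of these intervals reaches the change of Cyp51. Lbr was higher with BPS, at 16.6, 17.2 and 16.4 CPM against 11.6, 12.1 and 11.9 CPM in control females (0.51 ± 0.12, adjusted p = 0.0028). Tm7sf2 was lower with E2, at 83.1, 97.8 and 89.7 CPM against 106, 106 and 109 CPM (−0.25 ± 0.06, adjusted p = 0.00104). A fall of Tm7sf2 with 2,4-BPS (−0.17 ± 0.06) was lost without control library 1 (0.0586), control library 2 (0.0647), control library 3 (0.101), 2,4-BPS library 1 (0.133) or 2,4-BPS library 3 (0.0615), and a fall of Ebp with E2 (−0.17 ± 0.06) without control library 1 (0.0682), control library 2 (0.0763), control library 3 (0.111), E2 library 1 (0.261) or E2 library 3 (0.0619).

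The 5 genes of SREBP2 and its control moved apart in BPSIP females, 2 up and 2 down. Insig1, which holds SCAP in the endoplasmic reticulum and is itself an SREBP target, was at 114, 102 and 106 CPM in controls and 410.0, 422 and 422 CPM with BPSIP (1.95 ± 0.06, adjusted p = 1.57e-25). Srebf2, which encodes SREBP2, was at 44.0, 42.6 and 43.9 CPM in controls, 79.0, 82.5 and 86.6 CPM with BPSIP and 72.8, 71.3 and 70.9 CPM with E2. Neither gene's exposed libraries overlapped the controls, and Srebf2 rose by 0.92 ± 0.06 and 0.72 ± 0.06. Scap, the escort of SREBP2, was lower with BPSIP, at 119.7, 120.2 and 127 CPM against 179, 167 and 171 CPM (−0.50 ± 0.05, adjusted p = 8.74e-10). The protease gene Mbtps1 fell by 0.25 ± 0.06 with BPSIP and by 0.22 ± 0.06 with E2. Mbtps2 was at 8.16 ± 0.279 CPM in control and 7.53 ± 0.111 CPM in BPSIP females (−0.12, 95% interval −0.39 to 0.16). In 2,4-BPS females Scap was also lower (−0.20 ± 0.05), and in BPS females it missed the threshold (−0.09, −0.20 to 0.01).

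The largest fall among the 29 genes with BPSIP was that of Npc1, whose product moves cholesterol out of lysosomes. It was at 202, 186 and 193 CPM in control females and 71.8, 83.3 and 83.3 CPM in BPSIP females, without overlap (−1.29 ± 0.07, adjusted p = 2.19e-17). With 2,4-BPS and BPS it missed the threshold, at −0.05 (95% interval −0.18 to 0.08) and −0.07 (−0.20 to 0.07). With E2 a smaller fall (−0.20 ± 0.06) was lost without control library 1 (0.134), control library 3 (0.0718), E2 library 2 (0.142) or E2 library 3 (0.0573). Stard4, which carries sterol between membranes in the cytosol, rose by 0.64 ± 0.06 with BPSIP and 0.45 ± 0.06 with BPS, and with 2,4-BPS by 0.18 ± 0.06, a call lost without control library 2 (0.098), control library 3 (0.0962), 2,4-BPS library 1 (0.0568) or 2,4-BPS library 2 (0.0976). Mylip, also called Idol, encodes the ubiquitin ligase that marks the LDL receptor for breakdown. It was at 22.5, 22.0 and 19.1 CPM in controls and 19.7, 13.2 and 15.4 CPM with BPSIP (−0.40 ± 0.11, adjusted p = 0.00393), a fall that was lost without BPSIP library 2 (0.0609).

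The 3 bisphenol S compounds, given at the same dose and for the same time, were then compared with each other in female offspring. BPSIP differs from BPS by its isopropyl ether, and 20 of 29 genes were higher and 5 lower in BPSIP than in BPS females (median 0.88, background 39.3%, 19.2% higher and 20.1% lower). Idi1 was 3.00-fold and Lss 3.22-fold higher with BPSIP (1.59 ± 0.09 and 1.69 ± 0.07), and Npc1 was 2.33-fold lower (−1.22 ± 0.07). Against 2,4-BPS females, 20 were higher and 4 lower with BPSIP (median 1.15, background 35.5%, 17.3% higher and 18.3% lower). The genes below BPS were Npc1, Scap, Mbtps1, Mylip and Lbr. Of these calls, that of Mbtps1 was lost without BPSIP library 1 (0.0903) or BPS library 1 (0.0802), that of Mylip without BPSIP library 2 (0.245), BPSIP library 3 (0.0977), BPS library 2 (0.0682) or BPS library 3 (0.115) and that of Lbr without BPSIP library 3 (0.0876) or BPS library 2 (0.0553), adjusted p in brackets. The genes below 2,4-BPS were Npc1, Scap, Mbtps1 and Mylip, of which Mylip was lost without BPSIP library 2 (0.0749). All 6 mevalonate enzymes were higher with BPSIP than with either, and for 20 of the 29 every BPSIP library lay above every other exposed female library, as for 12.1% of all genes tested.

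The isomers 2,4-BPS and BPS lay closer. In 2,4-BPS females 1 gene was higher and 13 were lower than in BPS females (median −0.16, background 19.5%, 10.2% higher and 9.23% lower). The median was −0.10 without BPS library 3. Hmgcs1 was at 206 ± 3.89 CPM with 2,4-BPS and 309 ± 10.6 CPM with BPS (−0.59 ± 0.05, adjusted p = 5.45e-11), and Sqle differed by −0.53 ± 0.07. The 1 gene above BPS was Srebf2, at 59.0, 60.7 and 61.8 CPM with 2,4-BPS and 51.0, 50.2 and 51.2 CPM with BPS, groups that did not overlap (0.25 ± 0.06, adjusted p = 0.00182). No difference passed for Cyp51 (−0.0033, 95% interval −0.12 to 0.11), Mvk (−0.0042, −0.18 to 0.17), Sc5d (−0.01, −0.12 to 0.09) or Insig1 (−0.04, −0.15 to 0.08). The count of 14 fell to 5 when a fold over 1.2 was required, beside 5.35% of all genes. Some lower calls were lost without 1 library, with adjusted p in brackets. Fdft1 was lost without 2,4-BPS library 1 (0.0648), 2 (0.0562) or 3 (0.0964) or BPS library 1 (0.101) or 2 (0.107). Lbr was lost without 2,4-BPS library 1 (0.0684) or BPS library 2 (0.0567). Idi1 was lost without 2,4-BPS library 2 (0.0992) or BPS library 1 (0.0508), and Nsdhl without BPS library 2 (0.115).

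**Figure D3:**
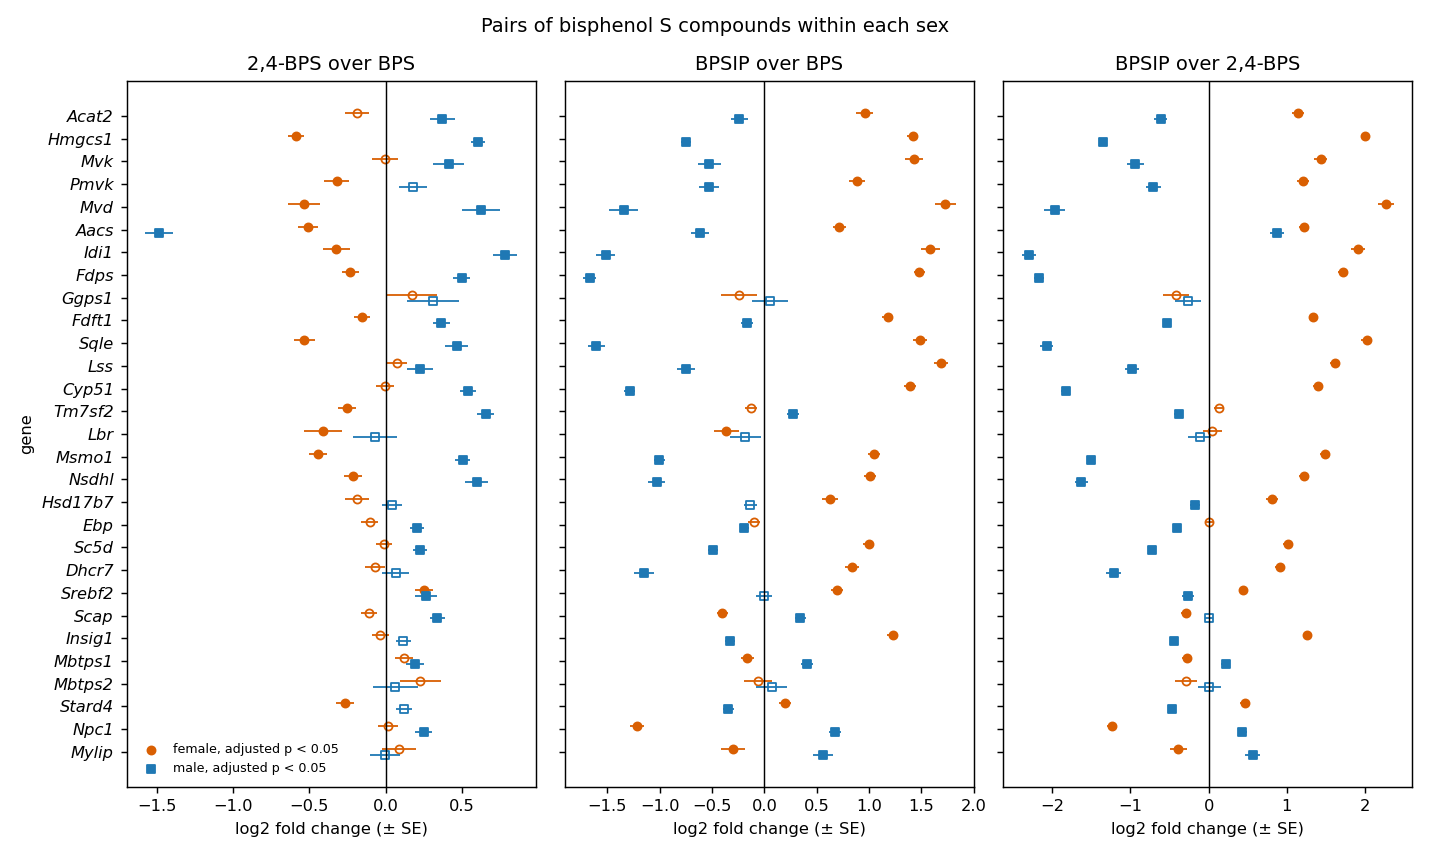
For each gene (vertical axis) the log2 fold change between a pair of bisphenol S compounds (horizontal axes, ± SE; 2,4-BPS over BPS, BPSIP over BPS and BPSIP over 2,4-BPS) is drawn for females (circles) and males (squares), 3 libraries per group, filled where the adjusted p was under 0.05. In the BPSIP panels the female and male points of most enzymes lie on opposite sides of 0, as for Sqle over BPS at 1.49 in females and −1.61 in males.

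Beside E2, the reference hormone, BPSIP females had 22 genes higher and 4 lower (median 1.03, background 38.4%, 19.7% higher and 18.6% lower). The lower genes were Npc1, Scap, Mylip, a call lost without BPSIP library 2 (0.0762), and Ggps1, a call lost without BPSIP library 1 (0.0886), BPSIP library 3 (0.0824) or E2 library 1 (0.15). The widest gap was that of Aacs, 5.01-fold higher with BPSIP (2.32 ± 0.07). BPS females had 10 higher and 6 lower (median 0.10, background 25.6%, 13.4% higher and 12.2% lower), and 2,4-BPS females 6 higher and 10 lower (median 0.01, background 29.8%, 16.1% higher and 13.7% lower). The median of 2,4-BPS over E2 lay between −0.05 and 0.02 over the alternatives, and was below 0 under DESeq2, RLE factors, the groups compared alone and without 2,4-BPS library 2, 2,4-BPS library 3 or E2 library 2. Both isomers were below E2 in Hmgcs1, at log2 fold changes of −0.33 ± 0.05 for BPS and −0.92 ± 0.05 for 2,4-BPS. Both were above E2 in Aacs, by 1.61 ± 0.07 and 1.10 ± 0.07, and in Nsdhl, by 0.58 ± 0.06 and 0.37 ± 0.06. Of these counts, that of BPS against E2 (16) and that of 2,4-BPS against E2 (16) each fell to 6 when a fold over 1.2 was required, beside 8.92% and 13% of all genes.

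In exposed males the order was another one. BPSIP males had the lowest mean of the 4 exposed male groups in 21 of 29 genes, and in 18 of the 29 every BPSIP library lay below every other exposed male library, as for 6.28% of all genes tested. E2 males had the highest mean in 18 genes. The shares of all genes with BPSIP lowest or E2 highest by mean were not computed. Against E2 males, 22 genes were lower in BPSIP males and 3 were higher (median −0.80), while 26.4% of the 13474 genes tested differed, 12.4% higher and 14.1% lower. Against 2,4-BPS males 21 were lower and 4 higher (median −0.53, background 31.3%, 15.5% higher and 15.8% lower), and against BPS males 19 were lower and 5 higher (median −0.34, background 35.4%, 18.6% higher and 16.8% lower).

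Sqle shows the span among males. BPSIP males had 10.9, 10.8 and 9.88 CPM and BPS males 35.8, 32.3 and 29.5 CPM. 2,4-BPS males had 44.2, 44.2 and 44.7 CPM and E2 males 60.6, 65.4 and 70.7 CPM. No 2 of these groups overlapped, and BPSIP was below them at log2 fold changes of −1.61 ± 0.08 over BPS, −2.07 ± 0.08 over 2,4-BPS and −2.64 ± 0.08 over E2 (adjusted p = 9.45e-26, 4.65e-32 and 2.74e-38). The libraries labelled male control had 41.9, 37.8 and 43.0 CPM, and their means were 153 CPM for Hmgcs1, 107 CPM for Cyp51, 146 CPM for Insig1 and 204 CPM for Npc1.

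Hmgcs1 followed the same order, at 83.1, 84.5 and 83.9 CPM in BPSIP, 147, 147 and 136 CPM in BPS, 224, 206 and 215 CPM in 2,4-BPS and 360.5, 384 and 387 CPM in E2 males. The 4 groups did not overlap. Cyp51 was at 37.3, 38.5 and 36.0 CPM in BPSIP and 193, 204 and 208 CPM in E2 males, 5.43-fold lower with BPSIP (adjusted p = 3.96e-46). Fdps and Idi1 were lowest in BPSIP males as well, at 30.3 ± 2.11 CPM and 9.30 ± 1.11 CPM, against 131 ± 5.70 CPM and 44.6 ± 1.19 CPM in E2 males. For both genes E2 and 2,4-BPS males did not differ beyond their spread, at 0.05 (95% interval −0.06 to 0.16) and 0.03 (−0.13 to 0.19). For Nsdhl and Msmo1, the log2 fold changes of BPSIP over E2 males were −2.16 ± 0.08 and −1.98 ± 0.05.

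**Figure D4:**
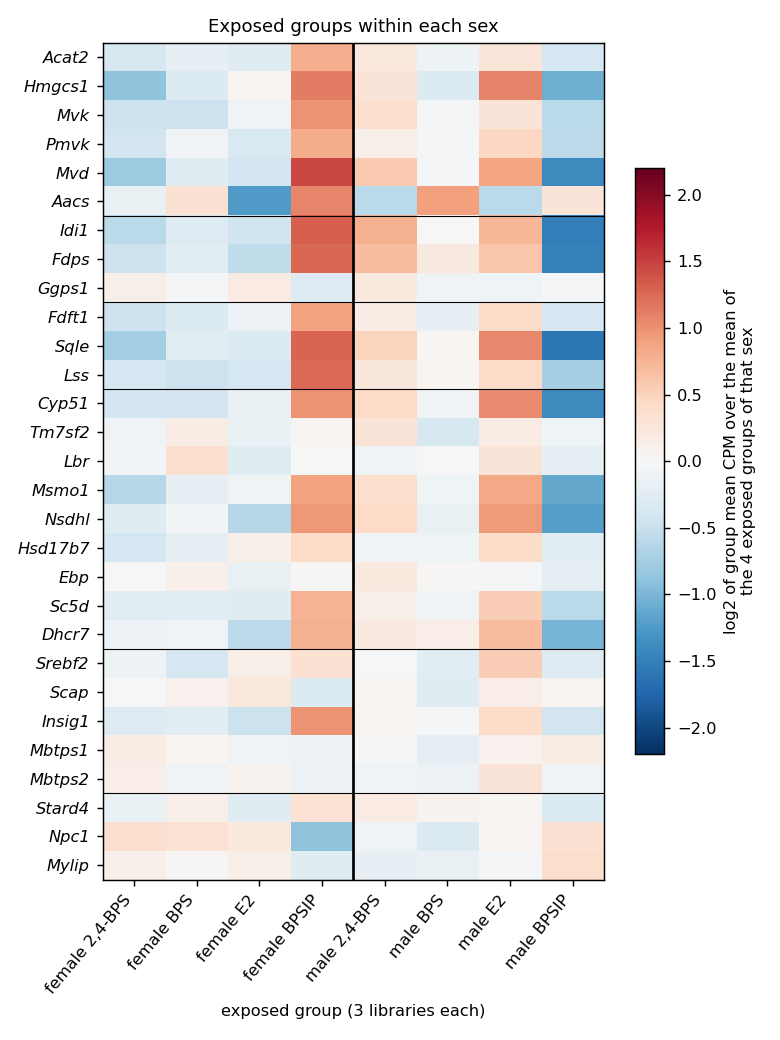
Each cell shows the log2 of a group's mean CPM (3 libraries), less the mean of these log2 values over the 4 exposed groups of the same sex. Shown are 29 genes (vertical axis) in 4 female and 4 male exposed groups (horizontal axis). The BPSIP column is high in females and low in males for most enzymes, as for Sqle with means of 186 and 10.5 CPM, and the signs are turned for Npc1 with 79.5 and 183 CPM.

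Some genes went the other way in males. Npc1 was at 175, 187 and 187 CPM in BPSIP males, above 125, 149.8 and 134 CPM in 2,4-BPS, 121, 118 and 110.4 CPM in BPS and 138, 159 and 159 CPM in E2 males. BPSIP libraries were above all others, and the differences were 0.43 ± 0.06, 0.68 ± 0.06 and 0.27 ± 0.06 (adjusted p = 2.58e-08, 1.3e-13 and 0.000193). Mylip was likewise higher in BPSIP males than in the other 3 exposed groups, at 29.8, 27.2 and 26.6 CPM against means of 18.9, 19.2 and 20.9 CPM. Aacs had its own order, highest in BPS males at 45.1, 43.2 and 36.0 CPM, then BPSIP males at 25.2, 25.9 and 28.9 CPM. It was at 14.6 ± 1.65 CPM in 2,4-BPS and 14.6 ± 1.10 CPM in E2 males, groups that overlapped and whose difference was −0.01 (95% interval −0.20 to 0.18). Besides Npc1 and Mylip, the genes higher in BPSIP males were Aacs beside 2,4-BPS and E2 (0.87 ± 0.09 and 0.86 ± 0.09), Mbtps1 beside 2,4-BPS (0.22 ± 0.06), and Scap, Mbtps1 and Tm7sf2 beside BPS. These 3 were above BPS males by 0.34 ± 0.05, 0.41 ± 0.06 and 0.27 ± 0.06.

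The regulator Srebf2 was not lowest in BPSIP males alone. It was at 34.9, 34.0 and 30.8 CPM in BPSIP and 36.2, 34.0 and 31.2 CPM in BPS males, which overlapped (−0.0031, 95% interval −0.15 to 0.14). E2 males had 56.3, 62.4 and 56.2 CPM, with log2 fold changes of −0.81 ± 0.07 for BPSIP and −0.81 ± 0.07 for BPS over E2 males. Insig1 was at 92.2, 95.4 and 96.5 CPM in BPSIP and 155, 169 and 171 CPM in E2 males, a difference of −0.80 ± 0.05 that is smaller than that of Sqle or Cyp51 in the same pair.

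Among the males the isomers also stood in another order than among females. In 2,4-BPS males 19 genes were higher and 1 was lower than in BPS males (median 0.26, background 27.5%, 15.2% higher and 12.3% lower). Idi1 was at 45.9 ± 4.38 CPM with 2,4-BPS and 27.1 ± 1.03 CPM with BPS (0.78 ± 0.08), Hmgcs1 differed by 0.60 ± 0.05 and Tm7sf2 by 0.66 ± 0.06. The 1 gene lower with 2,4-BPS was Aacs (−1.49 ± 0.09, adjusted p = 3.59e-22). No difference passed for Dhcr7 (0.06, 95% interval −0.12 to 0.24), Hsd17b7 (0.04, −0.09 to 0.17) or Mylip (−0.01, −0.20 to 0.19). Against E2 males, 2,4-BPS males had 1 gene higher and 17 lower (median −0.24, background 28.4%, 13.6% higher and 14.9% lower), and BPS males 1 higher and 23 lower (median −0.48, background 37.5%, 17% higher and 20.5% lower). The gene above E2 was Ebp in 2,4-BPS males (0.23 ± 0.05) and Aacs in BPS males (1.48 ± 0.09). The counts for 2,4-BPS fell from 20 to 10 against BPS and from 18 to 9 against E2 when a fold over 1.2 was required, beside 8.28% and 7.95% of all genes. Whether the difference between the isomers differs between the sexes was not tested as such.

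The sexes were set against each other by testing whether an exposed group's difference from the mean of the other 3 exposed groups differed between females and males. No control library stood on either side, though all 30 libraries were in the fit. For BPSIP 22 genes had a larger difference in females and 4 a smaller one (median 1.68), while 41.7% of 14131 genes tested passed, 21.8% larger and 20% smaller in females. Mvd had a female minus male difference of 3.84 ± 0.14 and Sqle of 3.81 ± 0.09 (adjusted p = 2.23e-33 and 1.47e-43). Npc1 and Mylip went the other way, at −1.63 ± 0.08 and −0.86 ± 0.12 (adjusted p = 9.47e-23 and 2.12e-08). In 17 genes BPSIP was higher than each of the 3 other exposed groups in females and lower than each of them in males, as in 1.31% of the 13327 genes tested in both sexes. Of these, the call of Stard4 over BPS females was lost without BPSIP library 2 (0.0589) or BPS library 1 (0.0663). The call of Acat2 over BPS males was lost without BPSIP library 2 (0.0845), BPSIP library 3 (0.0651) or BPS library 3 (0.0914), and that of Fdft1 without BPSIP library 3 (0.0928) or BPS library 1 (0.168), adjusted p in brackets.

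**Figure D5:**
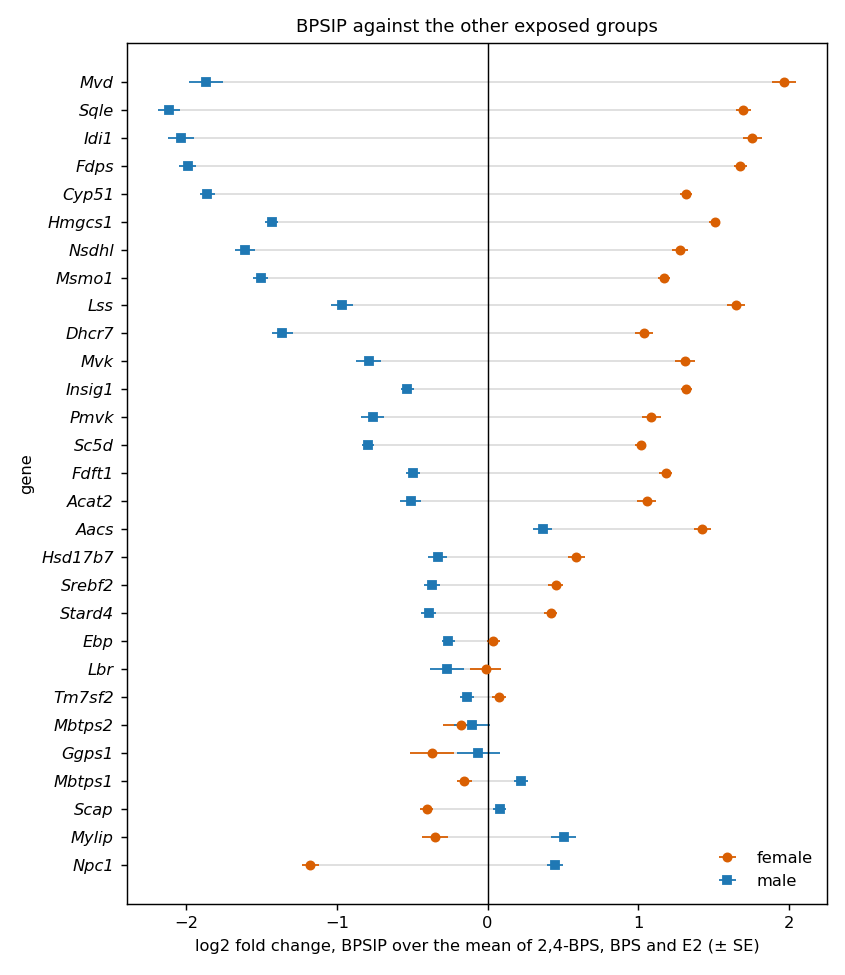
The log2 fold change of BPSIP over the mean of 2,4-BPS, BPS and E2, averaged on the log2 scale, is drawn for each gene (vertical axis). Values (horizontal axis, ± SE, 3 libraries per group) are shown for females (circles) and males (squares). Most enzymes lie above 0 in females and below 0 in males, with a female minus male difference of 3.84 for Mvd, while Npc1 and Mylip have the reverse arrangement.

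For E2 the difference was in the opposite direction, with 1 gene larger and 24 smaller in females (median −0.74, background 30.4%, 14.7% larger and 15.7% smaller). Nsdhl and Sqle had differences of −2.10 ± 0.08 and −1.80 ± 0.08 (adjusted p = 1.04e-31 and 5.15e-28), and Npc1 was the gene in the other direction at 0.19 ± 0.08 (adjusted p = 0.0479), a call lost under most alternatives. For 2,4-BPS 4 were larger and 20 smaller in females (median −0.49, background 28%, 14.3% larger and 13.7% smaller), with Idi1 at −1.83 ± 0.10, Mvd at −1.82 ± 0.13, Npc1 at 0.58 ± 0.08 and Aacs at 0.58 ± 0.09. For BPS 5 were larger and 10 smaller (median −0.10, background 29.3%, 14.5% larger and 14.8% smaller), with Npc1 at 0.86 ± 0.08, Tm7sf2 at 0.70 ± 0.07, Aacs at −0.76 ± 0.09 and Lss at −0.67 ± 0.09. The 4 contrasts are built from the same 8 groups and sum to 0 for each gene, so they are not independent of each other. The larger genes for 2,4-BPS also took in Mylip and Mbtps1, those for BPS Scap, Mbtps1 and Lbr, and the smaller genes for BPSIP Scap and Mbtps1. Lbr for BPS was lost without male BPS library 1 (0.116) or male BPS library 2 (0.0525). The count for BPS fell from 15 to 8 when a fold over 1.2 was required, beside 11.8% of all genes.

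Neighbouring pathways were read from 4 further lists, which share the use of mevalonate products or SREBP with the 29 genes. Their counts stand beside the same backgrounds, 38.6% for BPSIP against control females (19.4% higher and 19.2% lower) and 26.4% for BPSIP against E2 males (12.4% higher and 14.1% lower). Of 11 SREBP-responsive genes outside sterol synthesis, 8 were higher and 2 lower in BPSIP females than in control (median 0.46). The fatty acid synthase gene Fasn rose from 229 ± 8.30 CPM to 485 ± 23.6 CPM (1.08 ± 0.06), and Lpin1, whose product makes diacylglycerol and also acts as a coregulator of transcription, fell from 258 ± 2.32 CPM to 65.4 ± 3.11 CPM (−1.98 ± 0.08). The list had 3 higher and 8 lower in BPSIP against E2 males. Of 12 genes of sterol export, storage and the sterol-sensing receptor LXR, 4 were higher and 5 lower in BPSIP females (median 0.05). Ch25h of this list was near the floor, at 0.0532 CPM in control and 0.298 CPM in BPSIP females. Abcg8, a subunit of the pump that moves sterols into bile, fell from 100.3 ± 3.43 CPM to 42.6 ± 0.454 CPM (−1.24 ± 0.06), and Lpcat3, a phospholipid acyltransferase, from 106 ± 2.89 CPM to 52.2 ± 5.44 CPM (−1.02 ± 0.06). In BPSIP against E2 males Abcg8 was higher (0.50 ± 0.05, adjusted p = 1.52e-12), and 4 of the 11 tested genes of that list were higher and 1 lower.

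Genes that sense sterols or turn SREBP over were mixed, 4 higher and 4 lower of 13 in BPSIP females (median −0.04), beside the background of 38.6%. Insig2, the second retention gene, fell from 257 ± 0.546 CPM to 208 ± 8.37 CPM with BPSIP (−0.31 ± 0.05), opposite to Insig1. With E2, Insig2 rose (0.81 ± 0.05, adjusted p = 1.81e-15). Nploc4, which helps extract proteins from the membrane for breakdown, rose by 0.42 ± 0.06 with BPSIP. Of 10 genes on branches that use isoprenoids for other products, 4 were higher and 1 lower (median 0.15), beside the same 38.6%, and Dhdds, for dolichol, and Pdss1, for the tail of coenzyme Q, rose by 0.47 ± 0.08 and 0.99 ± 0.23.

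Markers of other liver cells moved with some of these groups. The summed level of 10 macrophage markers was 1235 to 1292 CPM in control females, 1929.8 to 2144 CPM with BPSIP and 1759 to 1852 CPM with 2,4-BPS, 1.59 and 1.42 times the control mean. With BPS and E2 it was 0.985 and 0.901 times control. Of the 10, 9 rose with BPSIP and 10 with 2,4-BPS, beside 19.4% and 10.9% of all genes higher in those comparisons. The sum of 7 sinusoidal endothelial markers was 0.788 times control with BPSIP, with 5 lower and 1 higher, and that of 7 neutrophil markers 1.57 times, with 4 higher. The means of Mmp8 and Retnlg, both neutrophil markers, were lower with BPSIP, at 0.438 and 0.992 CPM against 0.733 and 1.13 CPM in control females. The sum of 8 hepatocyte markers was 0.979 times control in BPSIP females, with 1 higher and 2 lower. These BPSIP counts stand beside 38.6% of all genes called, 19.4% higher and 19.2% lower, and the hepatocyte count lies near that share. In males the neutrophil sum was 3.46 to 6.80 CPM with BPSIP and 36.2 to 40.6 CPM with E2. Camp and Mmp8 were near the floor in BPSIP males, at 0.0331 and 0.127 CPM against 0.368 and 0.940 CPM in E2 males. Called neutrophil markers are therefore not counted for that pair. The sinusoidal sum was 487 to 497 CPM with BPSIP and 369.6 to 396 CPM with E2. The part of these cells in the levels of the 29 genes was not tested.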

How the data were processed

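Per the submitters' processing notes, the authors used HISAT2, HTSeq, R 3.2.0 and DESeq2. No version is named for the others, and build, annotation and strandedness were not given in the sources used here. As deposited by the authors, the values are raw counts per gene symbol and FPKM for the same 30 libraries. The deposited FPKM equal counts over the library total and a fixed gene length, to within a relative deviation of 3.46e-06, and served only to compare levels between genes.

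edgeR 4.0.16 (R 4.3.3) tested the deposited counts. The filter filterByExpr kept 13874 genes in the fit of 15 female, 13474 of 15 male and 14131 of all 30 libraries. TMM factors ran from 0.928 to 1.12. A robust quasi-likelihood model (common biological coefficient of variation 0.0915, 0.0873 and 0.0899) was tested with glmQLFTest. Benjamini-Hochberg adjustment ran over all genes of a fit, with a threshold of 0.05. CPM are scaled by the TMM factors of the fit of 30 libraries. SE and 95% intervals come from the fit, and ± beside CPM or FPKM is the SD of 3 libraries. The tests rest on the spread among the 3 libraries within each group, estimated jointly over all groups of a fit and with information shared across genes. The script was tested on simulated data.

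The 29 genes, the 4 further lists and the marker lists were chosen with earlier results of these data known. Any member may be named, with values of every library for those with the smallest p per role in BPSIP against control females and those that went against the others. The 2 genes with the smallest p of each further list are named. Replicate pairs differed by more than counting noise (chi-square per gene 4.03 to 15.2, where 1 is expected). All 30 were therefore kept as distinct libraries. That check cannot tell separate animals from separate preparations of 1 RNA, as either adds spread beyond counting. Library 2 of the E2 females stood out by this measure, at 15.2 with library 1 and 9.66 with library 3. Other pairs were at most at 6.68. Same-numbered libraries did not deviate together (60 pairs, r from −0.136 to 0.102), so replicate numbers do not pair samples. Alternatives were DESeq2 1.42.0, RLE factors, no filter, only the groups compared, a replicate block, a fold over 1.2 (glmTreat), leaving out each library and, chosen after seeing the data, the 12 exposed male libraries alone.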

Additional observations from a re-analysis of the deposited data

Results flagged for a closer look

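Whether an exposed group's difference from the mean of the other 3 exposed groups differed between the sexes was tested in 1 model over 30 libraries, and members that passed were picked out. There were 26 for BPSIP, 25 for E2, 24 for 2,4-BPS and 15 for BPS. The values below are female minus male on the log2 scale. For BPSIP, Mvd stood at 3.84 and Sqle at 3.81, with Npc1 at −1.63 and Mylip at −0.86 against them. For E2, Nsdhl stood at −2.10 and Sqle at −1.80, with Npc1 at 0.19, whose adjusted p of 0.0479 became 0.0836 under DESeq2, 0.0746 under RLE factors, 0.115 without the filter and 0.0963 over the 24 exposed libraries. For 2,4-BPS, Idi1 stood at −1.83 and Mvd at −1.82, with Npc1 at 0.58 and Aacs at 0.58. For BPS, Npc1 stood at 0.86 and Tm7sf2 at 0.70, with Aacs at −0.76 and Lss at −0.67. The mean summed level of 10 macrophage markers was 2006 CPM in BPSIP, 1796 in 2,4-BPS, 1247 in BPS and 1140.3 in E2 females. In males it was 716, 639, 706 and 823 CPM in the same order. For BPSIP it was the highest of the exposed groups in females and not in males, while for 2,4-BPS, with 20 members smaller in females, it was above BPS and E2 in females and the lowest in males. Its part in these differences was not tested.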

How the results depend on the processing

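No call of a member changed sign, of 428 in 20 comparisons. Of these calls, 125 were lost in at least 1 alternative, and 42 in at least 1 other than the required fold. Under a required fold over 1.2 the counts of called members were 9 for 2,4-BPS against control females, 5 for 2,4-BPS against BPS females, 6 for 2,4-BPS against E2 females, 6 for BPS against E2 females, 10 for 2,4-BPS against BPS males, 9 for 2,4-BPS against E2 males and 8 for the sex difference of BPS. The other 13 counts stayed within 1.5 times under it, as did all 20 under DESeq2, RLE factors, no filter, the groups compared alone and the replicate block. The block on replicate numbers gave the same 20 counts, such as 24 for BPSIP against control females, and changed no call. With the 12 exposed male libraries alone 1 of 136 calls was lost. Leaving out 1 library at a time gave 23 to 24 called members for BPSIP, 15 to 18 for 2,4-BPS, 18 to 20 for BPS and 15 to 18 for E2 against control females. Among female pairs it gave 23 to 24 (BPSIP and BPS), 11 to 14 (2,4-BPS and BPS), 23 to 25 (BPSIP and 2,4-BPS), 24 to 26 (BPSIP and E2), 15 to 17 (2,4-BPS and E2) and 15 to 17 (BPS and E2). The same pairs gave 22 to 25, 18 to 20, 24 to 26, 24 to 26, 13 to 17 and 23 to 24 in males. For the sex differences it gave 24 to 24 for 2,4-BPS, 26 to 26 for BPSIP, 13 to 17 for BPS and 23 to 25 for E2. At 103 counts or more per library, depth did not keep any member from being tested. The 3 libraries per group limit the precision.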
